A study of Mus musculus with 3 samples.

Results

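The genes of 54 transcription factors that specify lineages of the embryo were examined in mouse embryonic stem (ES) cells, which have not yet entered those lineages. They are a list of named genes, taken from the paired box, GATA, forkhead, LIM homeobox, NK homeobox, sine oculis and Iroquois homeobox, SOX, T-box, bHLH and other homeobox families, and the rule that lists them uses no measured value. Of the 54, 53 were found by name among the 22225 protein-coding genes of the GENCODE vM1 annotation of mm9, and Sox1 was placed by its promoter sequence and is given apart. For each gene, the 5 kb on either side of the annotated gene start was divided into 10 bins of 1 kb, oriented by the direction of transcription. No window of a listed gene overlapped that of another.

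The study measured DNA methylation by bisulfite sequencing, in which unmethylated cytosines are converted and methylated cytosines are not. Whole genome bisulfite sequencing (WG-BisSeq) was done in 1 library of REST knockout ES cells of Black Agouti 129 background, which lack the repressor REST. CTCF ChIP-BisSeq, bisulfite sequencing of DNA immunoprecipitated with an antibody against the zinc finger protein CTCF, was done in 2 replicates of wild type ES cells of mixed 129-C57Bl/6 background, each from 5 pooled ChIP experiments. Both kinds of cells were grown in serum with LIF, on feeder cells or gelatine. Genotype, strain and assay therefore changed together between WG-BisSeq and ChIP-BisSeq, and their parts cannot be told apart. The labels do not say whether the replicates came from separate cultures.

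In mammals, most CpGs are methylated, and CpG islands, the CpG-rich stretches at many gene starts, are not. Genes of developmental regulators are known for CpG islands that extend over, or recur around, much of the gene, and in ES cells these are classical targets of Polycomb repressors, which keep the genes silent but ready for later use. CTCF binds a long, defined sequence motif, organizes chromatin loops, and at imprinted loci binds only the unmethylated allele.

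The sequences just upstream of the start differ widely among these genes. The first 150 bases upstream, on the strand of the gene in mm9 and with CpGs in capitals, are shown for 2 genes with a wide unmethylated stretch, Dlx2 and Tlx3, and for 2 genes without one, Gata4 and Tbx5.
Dlx2, chr2:71384812-71384961 (-): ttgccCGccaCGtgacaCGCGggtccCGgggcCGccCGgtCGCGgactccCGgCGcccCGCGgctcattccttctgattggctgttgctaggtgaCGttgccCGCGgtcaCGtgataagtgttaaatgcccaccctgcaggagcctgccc
Tlx3, chr11:33103589-33103738 (-): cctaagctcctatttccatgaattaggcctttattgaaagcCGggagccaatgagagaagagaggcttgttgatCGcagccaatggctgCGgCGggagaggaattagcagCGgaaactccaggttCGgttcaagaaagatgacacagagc
Gata4, chr14:63890530-63890679 (-): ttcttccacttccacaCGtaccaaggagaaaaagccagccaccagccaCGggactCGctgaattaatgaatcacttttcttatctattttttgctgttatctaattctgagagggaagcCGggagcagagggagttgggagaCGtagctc
Tbx5, chr5:120284522-120284671 (+): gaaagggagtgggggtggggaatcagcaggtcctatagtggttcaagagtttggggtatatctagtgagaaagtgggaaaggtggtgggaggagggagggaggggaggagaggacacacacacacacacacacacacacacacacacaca
The Dlx2 sequence holds 17 CpGs, of which 1.52% of 328 WG-BisSeq observations were methylated, and the Tlx3 sequence holds 6, with 8.74% of 103. The Gata4 sequence holds 5 CpGs, with 95.5% of 22 observations methylated, and the Tbx5 sequence none.

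Summed over CpGs, the depth was 13411280 observations in replicate 1, 25262179 in replicate 2 and 273375318 in REST knockout cells. CpGs with more than 96 observations in the latter library were masked in all 3. This kept 98.6%, 93.6% and 61.4% of the observations, a mean coverage per CpG of 0.620, 1.11 and 7.87. Over the 530 bins of the 53 genes the median number of observations per bin was 15, 28 and 288, and the median width of the exact binomial 95% interval of a bin was 18.5, 22.8 and 11 percentage points, over bins with at least 10 observations. Observations of a bin share reads and PCR copies, so intervals, limits and Fisher p-values cover counting error only and are too small. As a check of the knockout label, in the REST knockout library 12 observations covered the 41 CpGs of the third exonic part of Rest, and 1160 the 39 CpGs of the first. Replicate 1 had 28 and 42 there, and replicate 2 had 173 and 104. On the 35 CpGs of the second part, REST knockout had 3 observations, replicate 1 had 0 and replicate 2 had 119. At least 1 of the 2 bins beside the start was below 15% in REST knockout cells in 6 of 7 ES cell marker genes and in 2 of 4 feeder cell marker genes.

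The first comparison asks how far unmethylated DNA extends around these genes in ES cells. The 1 kb that begins at the start was the least methylated bin, with a median over the 53 genes of 6.85% in REST knockout cells, against 10.2% over all protein-coding genes. Downstream, the medians of the next bins were 20.6%, 29.6%, 40.6% and 48.1%, against 55.9%, 66.7%, 68.1% and 68.8% over all genes. Upstream, the bin next to the start had a median of 16.3% and the bins beyond had 40.9%, 49.1%, 48.0% and 58.7%, against 17.6% and then 64.3% to 68.3% over all genes. Methylation thus stayed below the all-gene median in every bin, and the gap was widest between 1 and 3 kb downstream of the start. Other CpG-rich starts, defined by at least 55% GC and an observed to expected CpG ratio of at least 0.6 within 500 bp, had lower medians than the listed genes on both sides of the start, 7.29% and 4.58%, and higher ones further out, 41.9% and 63.8% in the next bins downstream. Housekeeping genes, 28 found of 29 listed, had 9.03% and 5.00% beside the start and 25.6% and 54.1% in the next bins. The 90 other genes of the same families had 19.3% and 8.46%, then 18.4% and 47.0%.

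**Figure D1:**
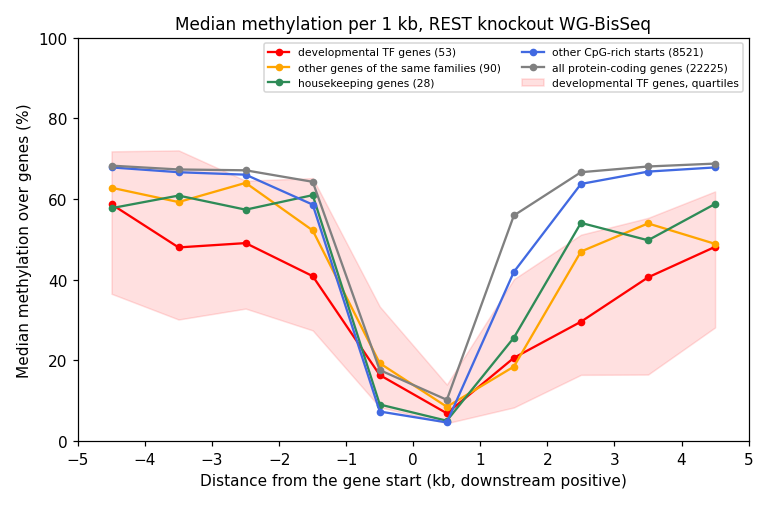
Median methylation over genes (percent of observations, y axis) in each 1 kb bin by distance from the gene start (kb, x axis) in REST knockout WG-BisSeq, for 5 groups of genes; the shaded band spans the quartiles of the developmental transcription factor (TF) genes. The developmental genes dip to 6.85% at the start as the other groups do, and stay at 20.6% to 48.1% downstream where all genes reach 55.9% to 68.8%.

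The gene body followed the same pattern. From 1 kb after the start to the end of the annotated gene, the median methylation of the 53 genes was 20.8%. It was 66.9% over all protein-coding genes and 57.8% over other genes of 2 to 10 kb with a CpG-rich start. The median length was 5869 bp for the 53 genes and 15525 bp for all genes. In short genes this part falls in the downstream bins described above, so it is not a separate measurement there. Of the 53, 40 genes were below 40% over this part, a share of 75.5%. That share was 11.7% of all genes measured and 30% of the other genes of 2 to 10 kb with a CpG-rich start. Other genes of the same families were close to the list, with a median of 24.1% and 60 genes (68.2% of those measured) below 40%. The lowest were Neurog2, a proneural bHLH factor, at 3.87%, Sox21, a SOX factor of neural progenitors, at 4.38%, and the forkhead gene Foxc1 at 4.94%. The highest was Tbx5, a T-box factor of the forelimb and heart, at 66.0%, followed by Msx2, a homeobox factor of limb and skull, at 61.5%.

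An unmethylated stretch was measured as the run of consecutive 1 kb bins with under 15% methylation, each of at least 10 observations, that touches the gene start. Of the 53 genes, 42 had at least 1 such bin at the start, a share of 79.2% against 55.3% of all protein-coding genes and 98.0% of other CpG-rich starts. The median width was 2 kb. Of the 53, 10 genes had a stretch of 1 kb, 18 of 2 kb, 9 of 3 kb, 4 of 4 kb and 1 of 5 kb. At least 3 kb was reached by 14 genes, or 26.4%, against 8.75% of all genes and 18.7% of other CpG-rich starts. Other genes of the same families reached it in 25 of 90 (27.8%), and housekeeping genes in 9 of 28 (32.1%). At least 4 kb was reached by 5 of the 53 genes (9.43%), against 1.76% of all genes and 3.65% of other CpG-rich starts. The shares at 4 kb were 7.78% of other genes of the same families and 7.14% of housekeeping genes. At least 5 kb was reached by 1 gene, against 0.436% of all genes. The count at 5 kb depends on the threshold: it was 11 below 25% and 0 below 10%, where all genes gave 2.05% and 0.103%.

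**Figure D2:**
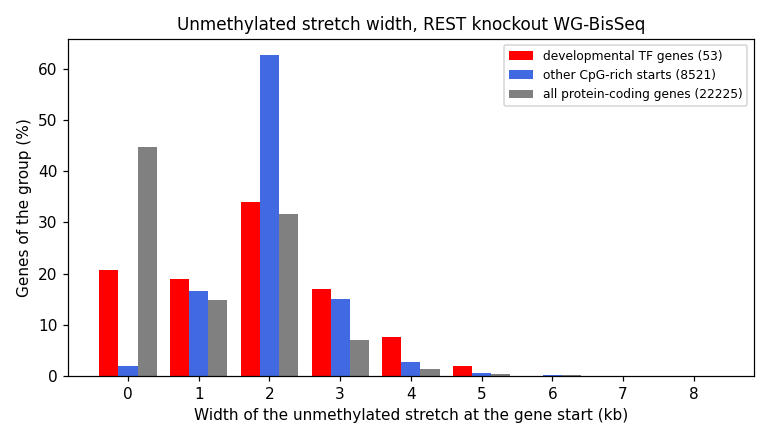
Share of genes (percent of the group, y axis) by width of the unmethylated stretch at the gene start (kb, x axis) in REST knockout WG-BisSeq. Of the developmental TF genes, 11 have no stretch and 18 have 2 kb, and 5 of 53 reach at least 4 kb.

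The widest stretch was that of Dlx2, a homeobox factor of forebrain interneurons on chromosome 2, whose bins from 1 kb upstream to 4 kb downstream were at 6.55%, 6.59%, 11.7%, 11.6% and 8.13% and covered the whole gene. Irx5, an Iroquois factor of retina and heart, was low from 3 kb upstream to 1 kb downstream, at 3.71%, 5.91%, 8.33% and 2.56%. Gata6, a zinc finger factor of primitive endoderm, and Tlx3, a homeobox factor of sensory neurons, were low from 1 kb upstream to 3 kb downstream, at 5.89% to 13.4% and 4.52% to 10.7%. Sox9, a SOX factor of cartilage and testis, was low from the start to 4 kb downstream, at 6.48% to 11.3%. The 3 libraries gave low levels at these starts. Within 1 kb of the start, REST knockout, replicate 1 and replicate 2 were at 6.58%, 6.97% and 4.30% for Dlx2, at 4.55%, 3.30% and 1.36% for Irx5 and at 8.85%, 1.33% and 2.52% for Gata6. Tlx3 was at 6.79%, 2.50% and 7.62% and Sox9 at 9.74%, 1.41% and 3.51%. All 5 stretches reached or passed the first 1 kb of the gene, and 4 of them lay mostly downstream of the start.

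**Figure D3:**
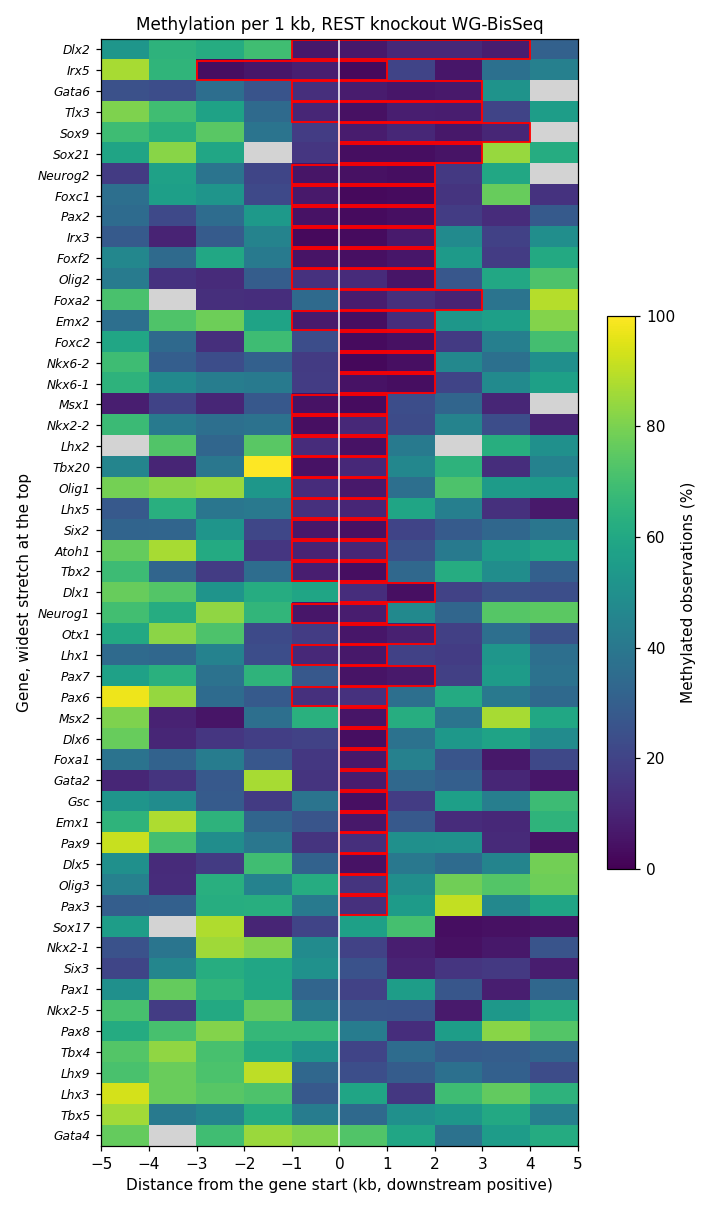
Methylation (percent, colour) of each 1 kb bin by distance from the gene start (kb, x axis) for the 53 genes (y axis) in REST knockout WG-BisSeq; red boxes mark the unmethylated stretch and grey marks bins under 10 observations. Dlx2 at the top has 5 kb below 15%, and the 11 genes at the bottom have no low bin at the start, although Sox17 and Nkx2-1 are low further downstream.

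The other genes with at least 3 kb were Sox21, Neurog2, Foxc1, Pax2, Irx3, Foxf2, Olig2, Foxa2 and Emx2. By family, the forkhead genes had a median of 3 kb (5 genes, 1 to 3 kb) and the SOX genes 3 kb (3 genes, 0 to 4 kb). The sine oculis and Iroquois homeobox genes had 2.5 kb over 4 genes, and the bHLH, LIM homeobox, NK homeobox and other homeobox genes each had 2 kb, over 6, 5, 5 and 11 genes. The paired box, T-box and GATA genes had a median of 1 kb, over 7, 4 and 3 genes. All 6 bHLH, all 5 forkhead and all 11 other homeobox genes had a low bin at the start, and the 11 genes without one lay in the other 7 families.

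Low bins were often separated from each other. Of the 53 genes, 25 had at least 3 of their 10 bins below 15%, a share of 47.2% against 13.1% of all genes, 46.4% of housekeeping genes and 41.1% of other genes of the same families, while 14 had a stretch of at least 3 kb. When every single bin lying between low bins was bridged, 6 genes reached 5 kb, against 1.5% of all genes. Foxa2, a forkhead factor of endoderm and floor plate, Msx1, a homeobox factor of limb and tooth, and Olig2, a bHLH factor of oligodendrocytes and motor neurons, spanned 6 kb, as did Irx5. More than 1 bin could be bridged in a run, and at Msx1 the bins at 20.3% and 27.5% both were.

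The 11 genes with no unmethylated bin at the start differed in where low bins lay. Sox17, a factor of endoderm, was at 20.6% and 56.8% beside its start, and at 3.84%, 4.32% and 5.20% from 2 to 5 kb downstream. Nkx2-1, a factor of thyroid and lung, was at 48.2% and 19.6% beside its start and at 8.57%, 4.42% and 6.47% from 1 to 4 kb downstream. These 2 genes had as many low bins, 4 and 3, as genes with wide stretches, but not at the annotated start.
The homeobox gene Six3, a factor of forebrain and eye, was at 50.6% and 25.3% beside its start, with 2 low bins downstream, the lower at 8.04%. Pax1, a factor of the vertebral column and thymus, Nkx2-5, a factor of the heart, and Pax8, a factor of the thyroid, had 1 low bin each, at 8.25%, 7.29% and 12.9%. Tbx4, a factor of the hindlimb, Lhx9, a factor of the gonad, Lhx3, a factor of pituitary and motor neurons, Tbx5 and Gata4, a factor of heart and endoderm, had none in the window. Of these 5, Gata4 was the most methylated near its start, with 81.1% in the bin upstream and 72.7% in the bin downstream (exact 95% interval of the upstream bin, 68.0% to 90.6%). Lhx3 was at 27.9% and 58.6%, and Tbx5 at 41.9% and 34.3%.
In the order REST knockout, replicate 1 and replicate 2, levels within 1 kb of the start were 75.5%, 100% and 96.2% for Gata4, on 8 and 26 ChIP-BisSeq observations, and 34.8%, 73.3% and 37.8% for Tbx5. Lhx3 was at 50.3%, 31.6% and 30.2%, Tbx4 at 33.1%, 25% and 59.7%, Pax8 at 47.0%, 25% and 52%, Nkx2-5 at 27.8%, 25.7% and 31.3%, and Sox17 at 23.1%, 17.6% and 31.3%. The other 4 were under 10% in both replicates, with Six3 at 30.8%, 0% and 0%, Lhx9 at 27.4%, 0% and 5.63%, Nkx2-1 at 27.9%, 8.79% and 8.40% and Pax1 at 22.8%, 8.62% and 8.73%. The start of Gata4 was thus high in all 3 libraries, and that of Tbx5 only in replicate 1, on 15 observations.
The choice of start changed some of these. With the coding transcript that has the most CpGs within 500 bp of its start, 14 of the 53 starts moved by more than 500 bp, and Gata4, Pax1 and Six3 each gained a stretch of 1 kb, with moves of 26421, 3069 and 7423 bp. Pax3, whose start moved by 296 bp, lost its stretch.

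CpG content went along with width. The windows of the 53 genes held a median of 338 CpGs, against 149 over all genes and 200 over other CpG-rich starts. Of the 53 starts, 37 were CpG-rich (69.8%), against 38.5% of all genes. That share was 61.1% of other genes of the same families and 64.3% of housekeeping genes. Across the 53 genes, Spearman's rho between width and CpGs per window was 0.53 and Pearson's r 0.52, and for the methylated share of the window it was -0.60 and -0.61. This is a description across genes, which share 1 library. Among genes of similar CpG number, smaller shares of the listed genes reached 3 kb. With 300 to 400 CpGs, 7 of 19 reached 3 kb, or 36.8%, against 50.3% of 751 other genes, and with over 400 CpGs 7 of 15, or 46.7%, against 71.2% of 125. With 200 to 300 CpGs, 0 of 14 did, against 21.3% of 4624. In these 3 classes the methylated share of all observations in the window was higher in the listed genes, at medians of 20.2%, 16.1% and 11.1% against 15.3%, 12.1% and 8.32%. The mean of the 10 bin levels, which gives CpG-poor bins the same weight, was lower in the listed genes, at 44.2%, 35.0% and 28% against 47.3%, 38.2% and 30.2%. With 100 to 200 CpGs, both measures were higher in the 5 listed genes, at 36.5% and 61.3% against 27.3% and 54.7% in the others. The order of the groups thus depends on the weighting and the CpG class, and no test was made of these differences.

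The second comparison asks where DNA was recovered by CTCF ChIP around these genes. The coverage ratio is the coverage per CpG of a bin divided by the mean of its library, and a bin was called CTCF-enriched at a ratio of at least 3 in both replicates, with at least 10 observations in each. No input library was used. Of the 530 bins, 29 were enriched, in 22 of the 53 genes (41.5%), against 30.8% of all protein-coding genes and 41.1% of other CpG-rich starts. Over the windows of all protein-coding genes, 4.53% of bins were enriched. Replicate 2 alone gave 24 of the 53 genes, against 36.3% of all genes, and replicate 1 alone 34, against 44.0%. WG-BisSeq coverage, from a library without immunoprecipitation, was itself at least 3 times its mean in 7 of the 29 bins, and in 72 of the 501 other bins. In a variant, 1 was added to each coverage per CpG and each library mean, and each ratio was divided by that of REST knockout. Then 17 of the 53 genes had an enriched bin, against 23.2% of all genes. The added 1 lowers ratios most in the libraries of low coverage. Of the 29 bins, 14 had a ratio of at least 10 in both replicates, and the remaining 501 bins had median ratios of 0.861 and 0.966.

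**Figure D4:**
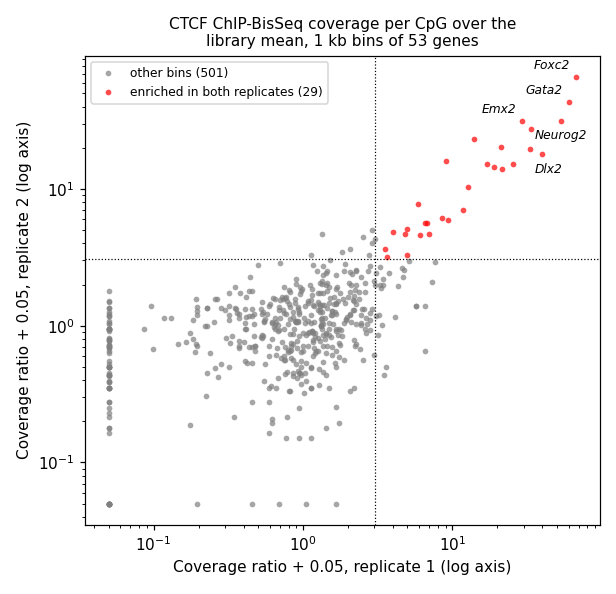
Coverage per CpG over the library mean (ratio plus 0.05, log axes) in CTCF ChIP-BisSeq replicate 1 (x axis) and replicate 2 (y axis), each point a 1 kb bin of the 53 genes; dotted lines mark the ratio of 3. The 29 enriched bins in red reach ratios of 67.2 and 66.0 at Foxc2, and most other bins lie near 1.

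By the lower of the ratios in the 2 replicates, the 5 highest enriched bins lay at Foxc2, Gata2, Neurog2, Emx2 and Foxa2. Foxc2, a forkhead factor of mesoderm and vessels, had ratios of 67.2 in replicate 1 and 66.0 in replicate 2 between 2 and 3 kb upstream of its start. Gata2, a zinc finger factor of blood progenitors, had 60.0 and 43.5 between 4 and 5 kb upstream. Neurog2 had 52.9 and 31.4 between 1 and 2 kb downstream. These 3 bins were covered by 1498 to 1932 observations in replicate 1. Emx2, a homeobox factor of the cerebral cortex, had 29.3 and 31.4 between 4 and 5 kb upstream, and Foxa2 had 33.6 and 27.2 between 1 and 2 kb upstream. In all 5 bins both replicates were at least 27.2, against the limit of 3, and the REST knockout library had ratios of 1.19 to 3.87.

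Of the 29 enriched bins, 8 lay inside the unmethylated stretch (27.6%), whereas 94 of all 530 bins did (17.7%), and the shares were not tested against each other. Another 3 lay next to the stretch, 15 further out and 3 in genes without one. Among the 3 last, Pax1 had ratios of 25.3 and 15.3 in the 1 kb from its start, Nkx2-1 33.0 and 19.7 between 4 and 5 kb upstream, and Sox17 9.02 and 16.0 between 4 and 5 kb downstream. Those inside a stretch were at Irx5 and Neurog2, with 2 bins each, and at Tlx3, Olig2, Foxa1 and Nkx2-2. In REST knockout WG-BisSeq these 8 bins had ratios of 1.13 to 5.22. At Tlx3 that ratio, 5.22, was as high as the 4.95 and 5.04 in the replicates.

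Exact matches to the CTCF consensus of 13 letters were found on either strand in 3 of the 29 enriched bins (10.3%) and in 3 of the 501 others (0.599%). Over all genes they were in 24.4% of enriched bins and 3.39% of others. With up to 1 mismatch, 13 of the 29 held a match (44.8%), against 9.78% of the others, and over all genes 55.3% and 12.9%. In 12 of these 13, the match lay within 100 bp of the coverage-weighted centre of the 200 bp with the most ChIP-BisSeq observations. Shown are the 3 exact matches and 4 with 1 mismatch from strongly enriched bins, in a frame of 20 bases of mm9, with the consensus positions in capitals.
Dlx2, chr2:71386078-71386097 (+): gtggCGCCACCTGGTGGaca
Nkx6-1, chr5:102098659-102098678 (+): ttatCGCCCTCTTGTGGaat
Nkx2-1, chr12:57642265-57642284 (+): gcggCGCCCTCTACTGGtca
Gata2, chr6:88139623-88139642 (-): agagCGCCACCTGGCGGctt
Neurog2, chr3:127337180-127337199 (-): agagCGCCCCCTGGAGGcca
Pax2, chr19:44829343-44829362 (+): ggagCGCCATCTACAGGcct
Foxc2, chr8:123637408-123637427 (-): gtggTGCCATCTTGAGGccg
The first 3 are exact and the last 4 have 1 mismatch. By the annotation, the Neurog2 match lies in the coding exon of that gene, 1135 bp downstream of its start, and the Foxc2 match in an intron of Gm20388, 2654 bp upstream of Foxc2. The other 5 lie between genes. A match is a description of the letters and was not tested for binding beyond the coverage given. At 200 bp around the exact matches, coverage ratios in replicates 1 and 2 were 111.6 and 46.6 at Dlx2, 36.0 and 17.4 at Nkx6-1, and 77.5 and 52.2 at Nkx2-1. Exact matches in the windows of Nkx6-2, Gata4 and Gata6 were not in enriched bins, with ratios of at most 3.01 over 200 bp. An exact match was in 6 of the 53 windows (11.3%) and in 32.5% of the windows of all genes, a difference that was not tested.

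Immunoprecipitated DNA at these bins was little methylated. All 29 enriched bins were below 40% in both replicates, against 78.9% of the 275 other bins measured in all 3 libraries, and 20 (69.0%) were below 15% in both, against 46.5%, with medians of 7.34% in replicate 1, 9.43% in replicate 2 and 17.4% in REST knockout cells. In 23 bins (79.3%) both replicates were below the REST knockout value, against 45.1% of the other 275 bins and 60.6% of the enriched bins of all genes. In the 14 bins already under 15% in REST knockout cells, the medians were 1.82% and 6.34%. In the 6 bins at or above 40% in REST knockout cells, the median was 59.2% there and 20.5% and 20.2% in the replicates. Both replicates were above the REST knockout value at Dlx5, a homeobox factor of the skeleton, and at Foxa1, by little. The Dlx5 bin between 2 and 3 kb upstream was at 28.6% and 34.7% in the replicates and at 17.4% of 23 observations in REST knockout cells. The next one upstream was at 20.9%, 13.9% and 12.1%, and the Foxa1 bin between 3 and 4 kb downstream at 7.49%, 7.09% and 6.46%.

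**Figure D5:**
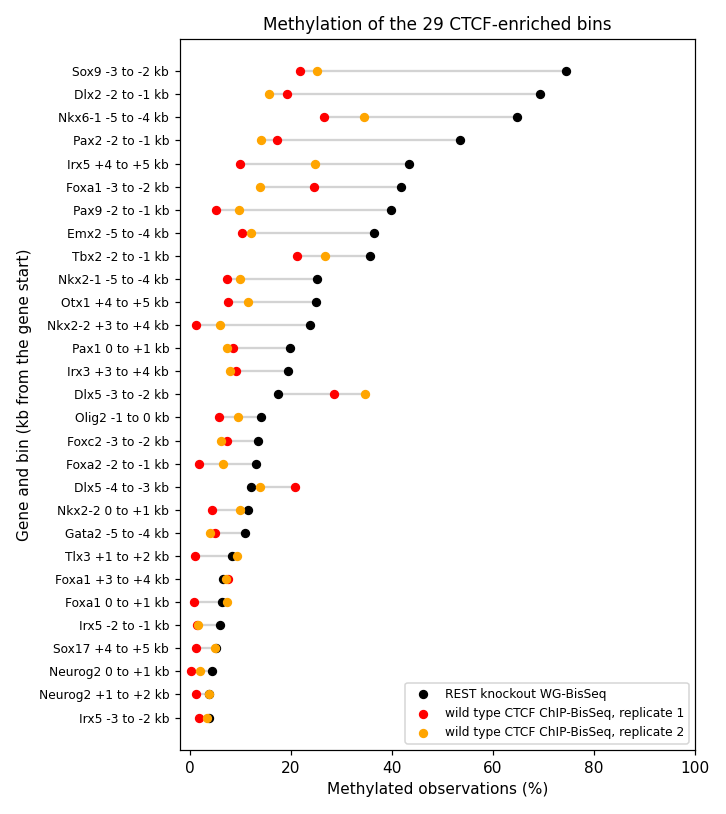
Methylated observations (percent, x axis) in the 3 libraries for the 29 CTCF-enriched 1 kb bins (y axis, gene and distance from the start), sorted by the REST knockout value. Both ChIP-BisSeq replicates lie left of REST knockout in 23 bins, with wide separations at Sox9, at 74.5%, 21.8% and 25.2%, and at Dlx2, at 69.2%, 19.2% and 15.7%.

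The third comparison sets the methylation of each ChIP-BisSeq replicate against the REST knockout library. Each bin with at least 10 observations in all 3 libraries was tested by Fisher's exact test, adjusted by Benjamini-Hochberg over the bins of all protein-coding genes. A bin was called when each replicate passed an adjusted p of 0.05 and lay 20 or more percentage points on the same side of the REST knockout level. The test compares libraries and not conditions. Of the 53 genes, 304 bins could be tested. In 18 bins (5.92%) both replicates were lower than REST knockout, against 3.32% of all bins tested, and in 0 bins were both higher, against 3.03%. With replicate 2 alone 26 bins were lower and 10 higher, and with replicate 1 alone 48 and 13.

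Of the 18 bins, 6 were CTCF-enriched, which is 20.7% of the 29 enriched bins, against 12.1% of the enriched bins of all genes. Pax9, a factor of thymus and teeth, had 39.7% of 775 observations in REST knockout cells between 1 and 2 kb upstream of its start, 5.21% of 518 in replicate 1 and 9.74% of 832 in replicate 2 (Fisher's exact test, adjusted p = 3.79e-47 and 2.23e-43). Emx2 had 36.5% of 318, 10.2% of 617 and 12.1% of 1185 between 4 and 5 kb upstream (Fisher's exact test, adjusted p = 1.37e-18 and 1.97e-19). Sox9 had 74.5% of 51, 21.8% of 211 and 25.2% of 246 between 2 and 3 kb upstream. In these 3 bins the replicates lay close to each other and apart from REST knockout.
Dlx2, in the bin that holds the exact match, had 69.2% of 26 observations, 19.2% of 443 and 15.7% of 356 between 1 and 2 kb upstream. At the CpG inside the Dlx2 match, 2 of 2 observations were methylated in REST knockout cells, 4 of 122 in replicate 1 and 1 of 50 in replicate 2. Nkx6-1, a factor of motor neurons and beta cells, had 64.8% of 122, 26.5% of 181 and 34.5% of 194 between 4 and 5 kb upstream. Pax2, a factor of the kidney and midbrain, had 53.6% of 56, 17.2% of 134 and 14% of 193 between 1 and 2 kb upstream. In each of these 3 bins, too, the replicates lay nearer to each other than to REST knockout.

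The other 12 lay in bins without CTCF enrichment, in 9 genes, and make up 4.36% of the 275 such bins tested against 0.979% over all genes. Of the 12, 5 touched a gene start. Upstream of its start, Six3 was at 50.6% of 156 observations in REST knockout cells and at 0 of 15 in both replicates, which allows a share of up to 20%, and at 25.3% of 562 downstream against 0 of 18 and 0 of 50, which allow up to 16.7% and 6%. Lhx9 was at 33.3% of 138 upstream of its start, 0 of 69 in replicate 1, which allows up to 4.35%, and 3.64% of 55 in replicate 2. Both genes had no unmethylated stretch in REST knockout cells.
Nkx2-1 was at 48.2% of 334 upstream of its start against 21.6% of 37 and 16.1% of 56. Pax3, a factor of muscle and neural crest, was at 40.7% of 199 against 0 of 23, which allows up to 13%, and 4% of 25.
The other 7 lay further out. Dlx5 was at 34.9% of 498 observations between 2 and 3 kb downstream against 0 of 33 and 4.55% of 66, and at 45.1% of 739 in the next bin against 1.72% of 116 and 12.5% of 112. Lhx9 was at 23.4% of 141 between 4 and 5 kb downstream against 0 of 36 and 0 of 37. In all 3 bins both replicates were at or below 12.5%. The Dlx5 bin between 3 and 4 kb downstream passed the coverage ratio of 3 in replicate 1 only, at 4.68 and 2.53.
Foxa1, a forkhead factor of endoderm, was at 43.9% of 132 between 1 and 2 kb downstream against 11.3% of 142 and 19.8% of 96. Irx3, an Iroquois factor of the neural tube, was at 49.2% of 457 between 4 and 5 kb downstream against 20.5% of 39 and 20.5% of 122. The Foxa1 and Irx3 bins each lay beside an enriched bin, and their own ratios were 7.64 and 2.89, and 2.86 and 5.00.
Nkx2-2, a factor of the ventral neural tube, was at 37.6% of 173 between 1 and 2 kb upstream against 10.7% of 28 and 5.88% of 34. Nkx6-1 was at 42.4% of 118 between 2 and 3 kb upstream against 3.85% of 26 and 6.67% of 15.

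Away from CTCF-enriched bins, the mean over bins of the listed genes was lower in ChIP-BisSeq than in REST knockout cells, and that of all genes was higher, but other weightings gave other orders. Between 1 and 3 kb from the start, the mean level over 103 bins of the listed genes was 25.2% in REST knockout cells, 18.5% in replicate 1 and 22.3% in replicate 2, while over all genes it was 40.3%, 50.0% and 45.1%. Within 1 kb, the listed genes had 15.0%, 7.83% and 11.4% over 91 bins, and all genes 12.7%, 13% and 13.2%. Between 3 and 5 kb they had 30.2%, 26.6% and 28.6% over 81 bins, and all genes 49.6%, 62.7% and 57.0%. Summed over observations, the listed genes between 1 and 3 kb were at 13.2%, 12.9% and 15.2%, so that replicate 2 was the highest. The median over all genes within 1 kb was lower in ChIP-BisSeq, at 6.83%, 3.45% and 5.95%. Housekeeping genes had lower means in both replicates within 1 kb, at 8.91%, 5.98% and 5.79%, and between 1 and 3 kb, at 25.0%, 23.6% and 19.0%. None of these differences was tested. Summed over the 53 genes within 1 kb of the start, 8.32% of 135643 observations were methylated in REST knockout cells (exact 95% interval 8.17% to 8.47%), 5.06% of 6994 in replicate 1 and 7.96% of 11912 in replicate 2, a mean over the replicates of 6.51% ± 2.05 (SD, n = 2). The REST knockout value lay above both replicates and within 1 SD of that mean. With n = 2 a range of 1 SD always extends past both replicates, so this does not show that the libraries agree. As the mean over CpGs of at least 10 observations, the REST knockout value was 9.03% and that of ChIP-BisSeq 4.61%. These CpGs were chosen in each library by its own depth and are not the same set. The SD above belongs to the summed values, so the gap between these 2 means was not set against it.
Of the 4 feeder cell markers, 2 were lower within 1 kb of the start in both replicates than in REST knockout cells, Col1a1 at 46.2%, 7.23% and 10.8% and Col1a2 at 37.9%, 12.1% and 14.3%, and Thy1 and Twist1 were not, at 10.2%, 33.3% and 11.9% and at 4.51%, 0% and 6.29%. The part of feeder cells in these differences was not tested.

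The replicates were also compared with each other, by the same test. Of 304 bins, replicate 2 was higher in 19 (6.25%), against 2.81% of all bins tested, and replicate 1 in 4 (1.32%), against 5.87%. None of the 29 enriched bins was among these 23, but a call needs a gap of at least 20 percentage points. Neither replicate exceeded 34.7% in the 29 bins, which leaves little room for such a gap. Smaller gaps passed an adjusted p of 0.05 in bins of Neurog2, Foxa1, Foxa2, Tlx3, Sox17, Irx5 and Pax9, with replicate 2 higher in each. Neurog2 between 1 and 2 kb downstream was at 1.09% in replicate 1 and 3.79% in replicate 2 (Fisher's exact test, adjusted p = 1.08e-05). With at least 20 observations in each library, the count fell from 23 to 11 bins.
The 4 bins higher in replicate 1 rested on few observations, 11 to 15 in that replicate. Foxa1 between 4 and 5 kb downstream was at 100% of 11 in replicate 1 and 31.7% of 41 in replicate 2. Nkx6-2, a factor of oligodendrocytes, was at 100% of 14 and 21.7% of 46 between 3 and 4 kb downstream. Pax6, a factor of the eye, was at 100% of 15 and 59.1% of 22 between 2 and 3 kb downstream, and Tbx2, a T-box factor of limb and heart, at 83.3% of 12 and 32.7% of 52 between 3 and 4 kb upstream. In each of these 4, replicate 2 was nearer to the REST knockout value than replicate 1.
Among the 19 bins higher in replicate 2, replicate 1 was at 0% in 9. The best covered in replicate 2 was at Nkx2-5 between 2 and 3 kb downstream, at 0% of 23 observations in replicate 1 and 31.0% of 129 in replicate 2, with 7.29% of 1990 in REST knockout cells. Emx1, a homeobox factor of the cortex, was at 1.45% of 69 and 39.0% of 77 between 3 and 4 kb downstream, with 11.7% in REST knockout cells, and Gata6 at 22.0% of 59 and 62.5% of 32 between 3 and 4 kb upstream, with 23.5%. In these 3 bins, and in the Pax9 bin downstream, replicate 1 was the nearer to REST knockout, and in the other 15 of the 19 it was replicate 2.
Lhx1, a LIM homeobox factor of head and kidney, had 2 such bins upstream, at 6.06% of 33 and 41.0% of 39, and at 0% of 24 and 37.0% of 27. Pax9 had 2, at 5.26% of 19 and 41.7% of 60 upstream, and at 34.5% of 29 and 100% of 10 downstream. Tbx4 had 2, at 5.88% of 17 and 59.3% of 27 upstream of its start, and at 0% of 21 and 32.7% of 55 downstream.
In the bin upstream of its start, Foxc2 was at 7.27% of 55 and 34.3% of 70. Sox17 was at 0% of 12 and 50% of 18 downstream of its start, and Nkx2-1 at 0% of 14 and 71.4% of 14 between 3 and 4 kb upstream. The remaining 7 bins lay at Tlx3, Irx3, Nkx6-1, Msx1, Nkx2-2, Pax7 and Tbx5, with 0% to 17.6% in replicate 1 and 26.5% to 59.7% in replicate 2.

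The REST consensus of 21 letters, the element through which REST represses neuronal genes, was searched with fixed spacing and no mismatch. Elements that differ from it are not counted, whereas the REST motif of the paper allowed a variable linker. An exact match was found in the window of 1 of the 53 genes, Lhx3, and of 11 of all 22225 genes (0.0495%). It lies 33 bp upstream of the Lhx3 start, and its letters, all in the match, are
Lhx3, chr2:26063792-26063812 (-): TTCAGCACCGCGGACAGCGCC
In the 200 bp around it, 44.1% of 93 observations were methylated in REST knockout cells, 28.6% of 7 in replicate 1 and 0% of 18 in replicate 2. With 7 observations in replicate 1, these 200 bp were not tested.

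Sox1, a SOX factor of neural progenitors, is not named in the annotation. Its RefSeq promoter (GRCm38.p6) matched mm9 exactly once, which put its start at position 12395519 of chromosome 8, on the plus strand and inside Gm5607. It had a stretch of 4 kb, from 1 kb upstream to 3 kb downstream, at 13.8%, 9.32%, 2.07% and 4.33% in REST knockout cells. Between 3 and 4 kb upstream it held a strongly enriched bin, with ratios of 27.9 and 43.6, at 21.9% of 634 observations in REST knockout cells and 5.02% and 7.35% in replicates 1 and 2.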

How the data were processed

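CTCF ChIP-BisSeq (2 replicates, wild type) and WG-BisSeq (1 library, REST knockout) were analysed. The authors deposited whole-number counts per CpG, the observations (nTot) and those methylated (nMeth), aligned to mm9. The submitters' processing notes name Bowtie 0.10.0.1; whether PCR duplicates were removed and strands combined is not given in the sources used here. Every listed position on the autosomes, X and Y is a plus strand CpG cytosine of NCBIM37; mitochondrial CpGs were left out. Counts were summed per bin with Python 3.11.15, NumPy 2.4.6, pandas 2.3.3, SciPy 1.17.1 and numba 0.67.0, and drawn with matplotlib 3.10.9.

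CpGs of nTot over 96 in the REST knockout library were left out, 16476 of 21342492. A bin needed at least 10 observations. The replicates were kept apart, although the study pooled them, so that their spread could be given. Fisher's exact test was two-sided and adjusted by Benjamini-Hochberg. Tested on simulated data for ChIP-BisSeq against REST knockout, it recovered 64.5% of 200 bins changed by 40 percentage points, with 0 false calls in 46487. The simulated observations were independent, with the same level in all libraries at unchanged bins. The 0 therefore does not cover shared reads, PCR copies or differences between libraries. A 0 was taken to allow up to 3 counts. The tested bins were limited to those with 10 observations in every library, 46687 of all genes. Genes named in full are the 5 widest and 5 narrowest stretches, those without a low bin at the start, the 5 with the highest coverage ratio and those with a called bin. The gene list and comparison lists were chosen with earlier results of these data known. Thresholds, bin size, minimal observations, the nTot limit, the gene start and each replicate were varied. The bridged run, the 40% threshold and the addition of Sox1 were chosen after seeing the data, as were the matches with 1 mismatch.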

Additional observations from a re-analysis of the deposited data

How the results depend on the processing

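The number of genes with an unmethylated stretch of at least 5 kb, 1 of 53, was 0 below 10% or with bins of 500 bp. It was 11 below 25%, 6 with every single-bin gap bridged and 27 below 40%. The median width of 2 kb became 1 kb below 10% or with the mean over CpGs, 1.5 kb with bins of 500 bp, 3 kb below 25% and 5 kb below 40%. Both stayed as they were with a minimum of 5 or 20 observations, without the limit on nTot, within 25 kb, with the other gene start and with Sox1. Methylation around the start in REST knockout cells, 8.32%, was 9.03% as the mean over CpGs of nTot at least 10, outside its interval. ChIP-BisSeq went from 6.51% to 4.61%, but these CpGs were chosen in each library by its own depth and are not the same set. The summed ChIP-BisSeq mean ranged from 5.06% to 7.96% with either replicate left out. Leaving out a replicate gave 24 to 34 genes with an enriched bin in place of 22, and 36 to 61 bins that differ from REST knockout in place of 18. At 10 percentage points 33 bins differed from REST knockout, all of them lower in ChIP-BisSeq. With at least 20 observations 11 bins differed between the replicates in place of 23. The other settings stayed within 1.5 times the count, or within the spread between replicates. No paired analysis was possible because the REST knockout has 1 library and no replicate number ties it to a ChIP-BisSeq library. The depth of ChIP-BisSeq limits the levels outside enriched bins, where a median of 15 and 28 observations per bin leaves wide intervals.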
